A study of Rattus norvegicus with 8 samples.

Results

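The kidney's calcium and magnesium handling genes were followed in male rats of the inbred F344/NSlc strain, 10 weeks of age, from which the right kidney was taken. The set was chosen by gene symbol from known function and comprises 10 genes: Trpv5, Trpm6, Calb1, S100g, Slc8a1, Atp2b1, Cldn16, Cldn10, Casr and Pvalb. By name, 8 of them, among 14400 genes named on the array, matched 12 of the 41012 gene probes of a 1-colour Agilent rat array, and all 12 passed the filter on dim probes, as did 23982 of all probes. For Trpm6 and Pvalb no probe was matched by name, and they were not analysed here. Of the rats, 4 were sham operated and 4 were nephrectomized on one side, which leaves the right as the residual kidney. Both groups share strain, sex, age and the side of the kidney, and no drug, diet or gene alteration is given for either. The labels date the sham samples at 1 day and the nephrectomized samples at 2 days after the operation, whereas the series text gives 2 days without separating the groups. A difference in sampling time and the operation itself therefore cannot be told apart.

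Most filtered calcium and magnesium is reclaimed passively, between the cells of the proximal tubule and of the thick ascending limb, where claudins in the tight junctions set the permeability and the calcium-sensing receptor Casr lowers it. The fine adjustment takes place in the distal convoluted and connecting tubules, through the cells. There calcium enters through the channel Trpv5, is carried across the cytosol by the calbindins Calb1 and S100g, and leaves on the blood side through the exchanger Slc8a1 and the calcium pump Atp2b1. Magnesium enters through Trpm6, and the buffer Pvalb marks the early distal convoluted tubule. The comparison addresses how the residual kidney adapts to the loss of its partner, since it must then handle the mineral load of both.

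The level of a probe is given as the log2 of its processed intensity minus the 75th percentile of its array, so that 0 is the 75th percentile and 1 unit is a doubling. Levels are therefore relative to the other mRNA of the sample, and the levels of different probes are not comparable with each other. Between 54.8% and 65.5% of gene probes were well above background on an array, with the lowest share in sham rat 1, which also lay apart on the second principal component. All 12 probes were well above background on all 8 arrays. The processed intensity of Trpv5, the dimmest, was 91.8 to 141, against 17.9 to 43.5 for the dimmest probe of each array that still counted as well above background. Of 28 marker genes fixed for nephron segments and podocytes, 26 were tested, and all 26 were well above background on all 8 arrays. The arrays lay on 2 slides with 2 rats of each group on each.

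S100g, the smaller of the calbindins, was the one tested member whose mRNA was called lower. It was read by a single probe matched by name, so no second probe backs its fall. After nephrectomy it stood at 57.5% of the sham level (95% interval 49.1% to 67.4%, n = 4 rats per group). None of the other 7 genes passed the test in either direction. Of the 12 probes 1 was called lower and 0 higher by limma at an adjusted p of 0.05, where 0.901% of all probes tested were called lower and 2.34% higher, or 3.24% together. By unadjusted p under 0.05 there were 2 of the 12, against 17.0% of all probes. The median difference of the 12 probes was -0.01 on the log2 scale, against 0.00 over all probes, with 6 differences below 0 and 6 above.

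**Figure D1:**
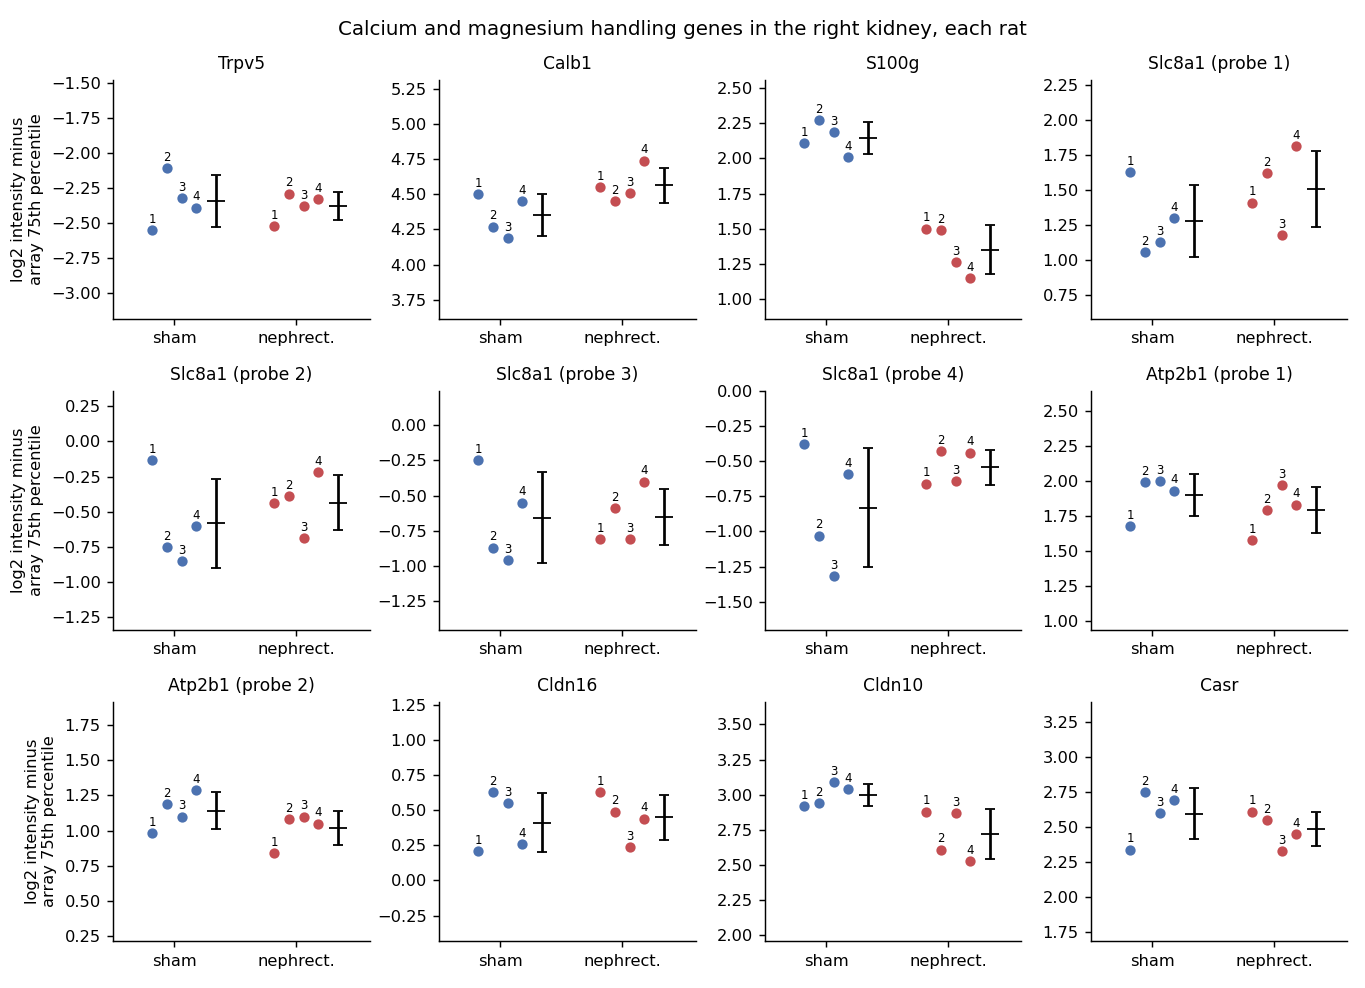
Levels of the 12 probes in each rat, as log2 processed intensity minus the array's 75th percentile (vertical axis, the same span of 1.7 units in each panel), for 4 sham rats (blue) and 4 nephrectomized rats (red). Small digits give the replicate number, and black marks give the mean and SD of each group. The nephrectomized rats lie below all sham rats for S100g (1.15 to 1.5 against 2.01 to 2.27) and, by less, for Cldn10 (2.53 to 2.88 against 2.92 to 3.09).

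The calbindins carry calcium from the luminal channel to the basolateral pump and keep the free calcium of the cell low. The levels of S100g (RefSeq transcript NM_012521) were 2.11, 2.27, 2.19 and 2.01 in sham rats 1 to 4. In nephrectomized rats 1 to 4 they were 1.5, 1.49, 1.26 and 1.15. The groups did not overlap, and the distance between the lowest sham and the highest nephrectomized rat exceeded the SD within either group (0.11 and 0.17, n = 4). The mean was 2.15 in sham and 1.35 in nephrectomized rats, a log2 difference of -0.80 (SE 0.10, 95% interval -1.03 to -0.57, adjusted p = 0.00401 by limma). By p-value the probe ranked 187 of 23982. Among the 216 probes called lower on the array, 31 had a fall at least as large as that of S100g, itself included.

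The fall of S100g was present on both slides, at -0.70 on slide 1 and -0.90 on slide 2. With slide as a block the difference was -0.80 (adjusted p = 0.00326 by limma). Within one slide, with 2 rats per group, it was not called (adjusted p = 0.227 on slide 1 and 0.0765 on slide 2 by limma). Leaving out any single rat gave differences from -0.85 to -0.73, all called.

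Calb1, the larger calbindin and likewise read by a single probe, did not follow S100g. Its levels were 4.50, 4.27, 4.19 and 4.45 in sham rats 1 to 4, and 4.55, 4.45, 4.51 and 4.74 in nephrectomized rats 1 to 4. Here 3 of the 4 nephrectomized rats lay above the highest sham rat, and the fourth (rat 2) lay below sham rat 1 and just below sham rat 4. The log2 difference of 0.21 (SE 0.09, 95% interval -0.01 to 0.42) was not called (adjusted p = 0.315 by limma). The interval reaches from 99.4% to 134% of the sham level and so holds no fall of the size seen for S100g.

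Because both calbindins were read on the same array, their ratio does not depend on the scaling between arrays. The log2 level of S100g minus that of Calb1 was -2.39, -2.0, -2.0 and -2.44 in sham rats 1 to 4. It was -3.05, -2.96, -3.25 and -3.59 in nephrectomized rats 1 to 4. The groups did not overlap, and the ratio of S100g to Calb1 was lower by 1 log2 unit after nephrectomy (mean -2.21, SD 0.24, against -3.21, SD 0.28, n = 4 each, exact two-sided permutation p = 0.0286). That is the smallest p that 4 against 4 rats allow, and the pair was chosen after its values were seen. S100g alone already separated the groups, and the mean of Calb1 was not lower after nephrectomy. The ratio therefore largely restates the fall of S100g, and its p is no further support. The shift was -0.81 on slide 1 and -1.20 on slide 2.

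**Figure D2:**
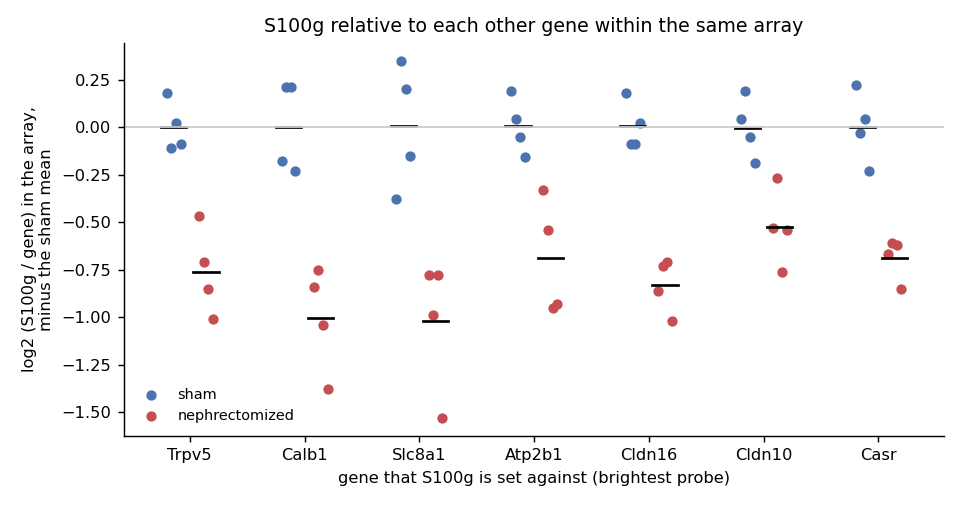
Log2 ratio of S100g to each of the other 7 genes within the same array (vertical axis, with the sham mean set to 0), for 4 sham rats (blue) and 4 nephrectomized rats (red). Black bars are group means. Against each gene the nephrectomized rats lie below all sham rats, from a mean shift of -0.52 against Cldn10 to -1.02 against Slc8a1. All ratios share the S100g values and are not independent.

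Against the other members S100g was likewise lower in each nephrectomized rat than in any sham rat, and no test was made of these ratios. All of them share the S100g value, so they largely restate its own fall and are not independent of each other. Relative to Trpv5, the channel upstream of it, the mean ratio shifted by -0.76, with sham rats at 4.38 to 4.67 and nephrectomized rats at 3.48 to 4.02. Relative to Casr the shift was -0.69, and relative to Cldn16 it was -0.83. The shift was smallest against Cldn10 (-0.52), whose own level was also lower after nephrectomy.

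Markers listed for the distal convoluted tubule and for connecting tubule and principal cells overlapped between the groups. Of the 4 genes listed for the distal convoluted tubule, 2 had a probe matched by name. Slc12a3, the sodium-chloride cotransporter of the distal convoluted tubule, ranged from 0.19 to 0.83 in sham rats and from 0.28 to 0.52 in nephrectomized rats, a difference of -0.03 (SE 0.13, adjusted p = 0.941 by limma). Wnk1, the other tested gene of that list, makes up nearly all of its summed level with Slc12a3. The sum was 58.4 to 72.1 times the 75th percentile intensity in sham rats and 57.8 to 69.6 times in nephrectomized rats. It therefore follows Wnk1 and says little about Slc12a3. The 5 genes of connecting tubule and principal cells (Aqp2, Aqp3, Avpr2, Scnn1b and Scnn1g) do not single out the cells that make S100g. Their summed level was 67.8 to 84.9 times in sham rats and 70.8 to 83.1 times in nephrectomized rats. That sum comes mostly from the brighter probes, those of Aqp2, Aqp3 and Scnn1b. None of these 7 genes was called, and the smallest adjusted p among them, that of the sodium channel subunit Scnn1g, was 0.485 by limma. In whole tissue, fewer cells of a type and less mRNA per cell cannot be told apart.

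Trpv5, the luminal entry channel, had nearly the same mean in both groups. Its levels were -2.55, -2.11, -2.32 and -2.39 in sham rats 1 to 4 and -2.52, -2.29, -2.38 and -2.33 in nephrectomized rats 1 to 4. Every nephrectomized rat lay within the range of the sham rats. The difference was -0.04 (SE 0.10, adjusted p = 0.904 by limma), and the 95% interval of the level was 83.1% to 115% of sham.

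On the blood side, the sodium-calcium exchanger Slc8a1 was the most variable gene of the set among sham rats. Of its 4 probes, numbered here by brightness, 3 carry the transcript NM_019268 and 1 (probe 2) carries NM_001270773. On probe 1 the levels were 1.63, 1.06, 1.13 and 1.30 in sham rats 1 to 4 and 1.41, 1.62, 1.18 and 1.81 in nephrectomized rats 1 to 4, so that the groups overlapped widely. The SD among sham rats was 0.26, 0.32, 0.32 and 0.42 on probes 1 to 4, wider than for any probe of the other members (0.08 to 0.21).

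The probes of Slc8a1 agreed in the order of the sham rats at its top end, with sham rat 1 highest on all 4. Their log2 differences were 0.23, 0.15, 0.01 and 0.28 on probes 1 to 4, with SEs from 0.16 to 0.19. None was called (adjusted p from 0.511 to 0.990 by limma). The widest of their 95% intervals, that of probe 4, runs from 90.0% to 165% of sham.

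The plasma membrane calcium pump Atp2b1 works beside the exchanger. Both of its probes had slightly lower means after nephrectomy, by -0.11 (SE 0.10) and -0.12 (SE 0.09), and neither was called (adjusted p = 0.655 and 0.562 by limma). On probe 1 sham rats ranged from 1.68 to 2.00 and nephrectomized rats from 1.58 to 1.97. On probe 2 the ranges were 0.98 to 1.29 and 0.84 to 1.1. In both cases 1 nephrectomized rat, rat 1, lay below the lowest sham rat, and the other 3 lay within the sham range.

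Of the tight junction genes, Cldn10, whose variants form cation and anion pores in the thick ascending limb and proximal tubule, was lower in each nephrectomized rat than in any sham rat. Its levels were 2.92, 2.94, 3.09 and 3.04 in sham rats 1 to 4 and 2.88, 2.61, 2.87 and 2.53 in nephrectomized rats 1 to 4. The margin was narrow: sham rat 1 and nephrectomized rat 1 differed by less than the SD of either group (0.08 and 0.18). The log2 difference of -0.27 (SE 0.10, 95% interval -0.49 to -0.06) did not pass the adjusted threshold (adjusted p = 0.186 by limma). Groups without overlap, as for S100g and Cldn10, were found for 2 of the 12 probes, both lower after nephrectomy. Of all probes tested 12.2% had groups without overlap, and 4.92% had them with lower levels after nephrectomy. With array weights, which count the noisier arrays less, Cldn10 was called (-0.39, adjusted p = 0.0238 by limma), and under the other settings that used both slides the adjusted p was 0.134 to 0.427. The difference was -0.18 on slide 1 and -0.36 on slide 2. The array does not show which of the splice variants of Cldn10 its single probe reads.

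Cldn16, which with its partner Cldn19 allows calcium and magnesium to pass the thick limb junctions, had levels of 0.21 to 0.63 in sham and 0.24 to 0.63 in nephrectomized rats. The ranges coincided almost fully, and the difference was 0.04 (SE 0.12, adjusted p = 0.920 by limma). Its interval was 84.7% to 124% of sham. Casr, the receptor through which blood calcium restrains this route, was 2.34, 2.75, 2.60 and 2.69 in sham rats 1 to 4 and 2.61, 2.55, 2.33 and 2.45 in nephrectomized rats 1 to 4. The lowest values of the 2 groups, sham rat 1 and nephrectomized rat 3, were nearly equal. The difference of -0.11 (SE 0.10) was not called (adjusted p = 0.660 by limma), with an interval of 78.7% to 109% of sham.

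**Figure D3:**
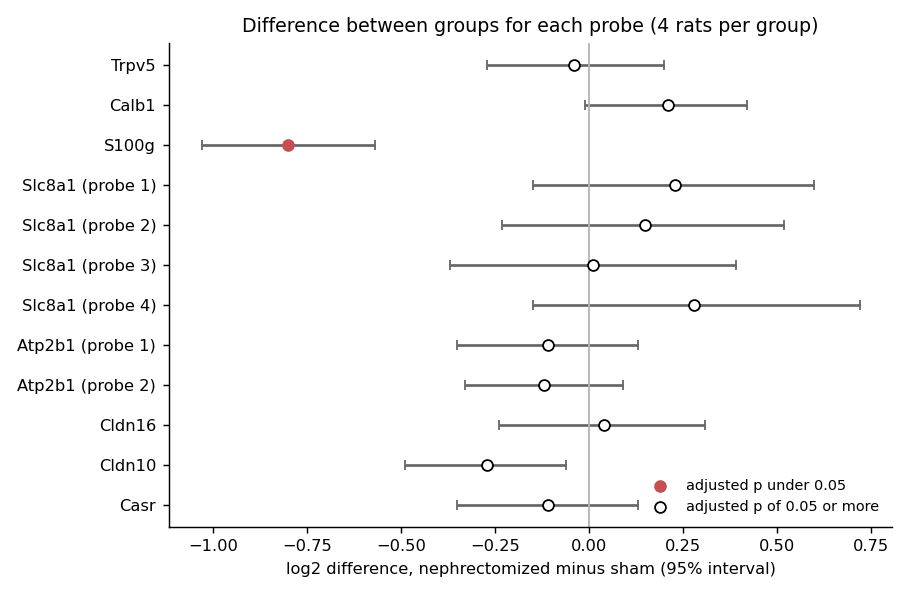
Log2 difference between nephrectomized and sham rats (horizontal axis) for each of the 12 probes, with its 95% interval from limma and 4 rats per group. The filled point is called at an adjusted p of 0.05 and the open points are not. S100g lies at -0.80, and the other 11 probes lie between -0.27 and 0.28.

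Sham rat 1 stood at an end of the sham group for most of the set. It was the lowest sham rat on 6 probes (Trpv5, both of Atp2b1, Cldn16, Cldn10 and Casr) and the highest on 5 (Calb1 and all 4 of Slc8a1), in all on 11 of 12 probes. Over all probes tested it was the lowest or highest sham rat on 67.5%. S100g was the exception, with sham rat 1 between the others. Without sham rat 1 the differences moved to 0.26 for Calb1, 0.34 for probe 1 of Slc8a1, -0.18 for probe 1 of Atp2b1, -0.19 for Casr and -0.11 for Trpv5. None of these was then called, and S100g was at -0.81 (adjusted p = 0.0134 by limma). The part of this rat in the differences of the other genes was not tested.

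The wider pathway held no call by its genes' brightest probes. In 5 lists there were 75 other genes of calcium and magnesium handling, of which 71 had a probe matched by name and 57 passed the filter. Of these 57 limma called 0, against 3.41% of all genes tested (2.47% higher and 0.941% lower), and 11 had an unadjusted p under 0.05, against 17.6%. All genes here means 19865 features, where each accession that matched no symbol counts as a gene. Their median log2 difference was 0.01, against 0.00 over all genes, with 31 positive and 26 negative. The groups did not overlap for 3 of them (Calm2, Egfr and Mrs2), against 12.7% of all genes. Of these Egfr was lower, where 5.08% of all genes had groups without overlap and lower levels. With array weights 5 of the 57 were called (Atp2b2, Calm2, Egfr, Mrs2 and Cldn2), beside 2620 probes in place of 777 on the whole array.

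Among the 12 tested genes of calcium entry, extrusion and buffering, Calm2 and a second calcium pump are described here. Calm2, which encodes the calcium sensor calmodulin, was 4.28, 4.26, 4.28 and 4.35 in sham rats 1 to 4 and 4.58, 4.48, 4.77 and 4.56 in nephrectomized rats 1 to 4. The groups did not overlap, and the difference of 0.31 (SE 0.07) did not pass (adjusted p = 0.0681 by limma). A second, much dimmer probe of Calm2 gave 0.06.

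Atp2b2, a plasma membrane calcium pump like Atp2b1, had higher means after nephrectomy on both of its probes, and 1 of them was called. On the brighter probe the difference was 0.46 (SE 0.14) and was not called (adjusted p = 0.124 by limma). On the dimmer probe sham rats ranged from -2.99 to -2.67 and nephrectomized rats from -2.34 to -2.02, and the difference of 0.62 (SE 0.10) was called (adjusted p = 0.0120 by limma). Sham rat 1 was the highest sham rat on both probes. Without it the brighter probe was called too (0.60, adjusted p = 0.0183 by limma). Slc8b1, the mitochondrial sodium-calcium exchanger, had the widest difference of the list at 0.72 (SE 0.67, adjusted p = 0.649 by limma). It rests on sham rat 2, at -0.40, where the other sham rats were at 2.61 to 3.00 and the nephrectomized rats at 2.54 to 2.87. Trpv6, the close relative of Trpv5, and the exchangers Slc8a2 and Slc8a3 did not pass the filter on dim probes.

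The hormonal list held 8 tested genes and no call. Cyp24a1, the enzyme that inactivates vitamin D, had a difference of -0.57 (SE 0.20, adjusted p = 0.186 by limma), and Cyp27b1, which activates it, 0.23 (adjusted p = 0.216 by limma). The vitamin D receptor Vdr had 0.03, the parathyroid hormone receptor Pth1r -0.16 (adjusted p = 0.312 by limma) and Kl, the klotho co-receptor, 0.08. None of these moved beyond the adjusted threshold.

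**Figure D4:**
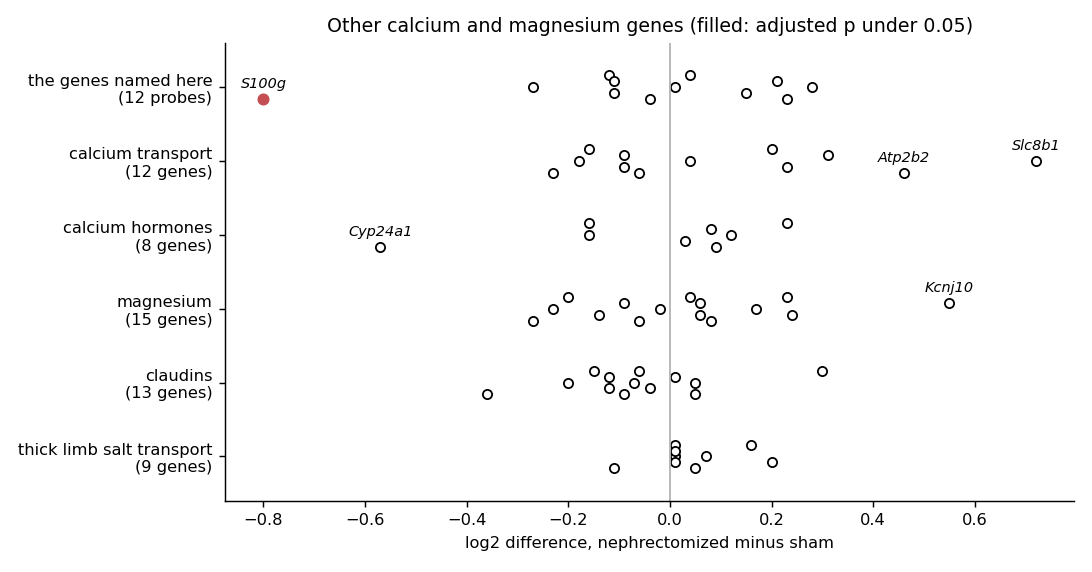
Log2 difference between nephrectomized and sham rats (horizontal axis) for the 12 probes of the set and for the brightest probe of each tested gene of 5 lists of other calcium and magnesium genes, with 1 point per probe or gene and a vertical offset for legibility. Genes beyond 0.4 in either direction are labelled, and S100g is the one filled point, called at an adjusted p of 0.05. Slc8b1 (0.72) and Kcnj10 (0.55) lie furthest to the right and are not called. The value of Slc8b1 rests on sham rat 2, and Kcnj10 passed the filter on dim probes only through the nephrectomized rats.

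Of the 15 tested magnesium genes none was called. Egfr, the receptor through which epidermal growth factor acts on distal magnesium uptake, was 1.21, 1.32, 1.31 and 1.41 in sham rats 1 to 4 and 1.11, 0.99, 1.05 and 1.01 in nephrectomized rats 1 to 4. The groups did not overlap, and the difference of -0.27 (SE 0.06) did not pass (adjusted p = 0.0614 by limma). Its second probe gave -0.26, with overlap. The ligand Egf had a difference of 0.08, and Mrs2, a mitochondrial magnesium channel, 0.23 (adjusted p = 0.100 by limma). The other probe of Mrs2 gave -0.14 (SE 0.31, adjusted p = 0.877 by limma), with overlap and with nephrectomized rat 1 at -0.70 against 0.71 to 0.83 in the other nephrectomized rats, so the probes disagreed in sign. Kcnj10, a basolateral potassium channel of the distal convoluted tubule, stood well above background on the arrays of 2 of 4 sham rats and of all 4 nephrectomized rats. It passed the filter only through the group where it was higher, so the direction of its difference of 0.55 (adjusted p = 0.164 by limma) is favoured by the filter and is not read as a change. The transporters Cnnm2 and Slc41a3 and the channel Trpm7, a relative of Trpm6, had 0.04, -0.20 and -0.06. Of the same families, Slc41a1 had -0.23 (adjusted p = 0.266 by limma), and Cnnm3 0.06 and -0.10 on its 2 probes. Cnnm4 had 0.24 on its brighter tested probe and 0.27 on the other (adjusted p = 0.302 and 0.193 by limma). On the latter the groups did not overlap.

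Of 13 tested claudins, 9 had lower and 4 higher means after nephrectomy, with a median of -0.07 and no call. Cldn2, the cation and water pore of the proximal tubule, had a difference of -0.36 (SE 0.13, adjusted p = 0.188 by limma) on its brighter probe and -0.44 on the other. It was called without nephrectomized rat 3 (-0.47, adjusted p = 0.0419 by limma). Cldn9 and Cldn12 had -0.12 and -0.15, Cldn14, which blocks the Cldn16 pore, -0.04, and Cldn19 -0.07. The differences of these 4 were all smaller in size than that of Cldn10, whereas those of Cldn2 and Cldn7 were larger. Cldn7 had 0.30 (SE 0.35, adjusted p = 0.732 by limma).

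The salt transport of the thick limb creates the voltage that drives calcium and magnesium through the junctions. Its 9 genes had the narrowest range of the 5 lists, with a median of 0.01 and differences from -0.11 to 0.20. The sodium-potassium-chloride cotransporter Slc12a1 had -0.11 (adjusted p = 0.652 by limma) and the chloride channel subunit Bsnd 0.20 (adjusted p = 0.535 by limma). None was at an unadjusted p under 0.05.

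Markers of cell types were read in 15 lists, of which 13 had a gene tested. The 4 genes of proliferating cells all rose, with Birc5, which acts in mitosis, at 1.5 (SE 0.12, adjusted p = 0.00114 by limma). Their summed level was 4.57 to 6.54 in sham and 15.7 to 26.7 in nephrectomized rats, in multiples of the 75th percentile intensity. That sum comes mostly from the brightest of the 4 genes. In the other lists none of 39 tested genes was called, with smallest adjusted p by limma of 0.257 for endothelium (Pecam1), 0.285 for stroma (Col1a1), 0.368 for leukocytes (Ptprc), 0.448 for proximal tubule (Lrp2), 0.614 for intercalated cells (Slc4a1) and 0.706 for fat (Adipoq). The smallest was 0.535 for thick ascending limb (Bsnd), 0.903 for distal convoluted tubule (Wnk1), 0.473 for skeletal muscle (Tnnt3) and 0.678 for red blood cells (Alas2). No gene of the parathyroid (Pth, Gcm2, Chga) or adrenal cortex lists (Cyp11b1, Cyp11b2, Cyp11a1) passed the filter on dim probes, nor did Acta1, Ckm or Myh4 of skeletal muscle. The part of cell proliferation in the fall of S100g was not tested.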

How the data were processed

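Total RNA was extracted with an RNeasy kit and labelled with Cy3, per the labels' protocols. The authors extracted 1 array per rat with Agilent Feature Extraction 10.5.1.1, and the deposited processed intensity had its background subtracted and its spatial trend removed, per the file headers, without normalization between arrays. The authors' deposited log2 table (30409 gene probes, r = 1.00 with the values used here after centring each probe on its median, column medians -0.0171 to 0.0150) served as an alternative.

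The log2 processed intensity was averaged over a probe's spots, without control spots and spots marked as outliers, and the array's 75th percentile was subtracted. A probe was kept if every array of either group showed it well above background. A probe was named where its RefSeq accession matched a table of the GRCr8 assembly (18713 of 41012 probes). The header's build is rn4, so no coordinates are given. Every kept probe was a feature of 1 fit in limma 3.58.1 (R 4.3.3, two-sided, no covariates), checked on simulated data, with Benjamini-Hochberg adjustment over all 23982 and a threshold of 0.05. Other genes are read by their brightest probe. The labels count replicates and the series text counts rats, and the p-values measure the spread between these samples. Precision is limited by 4 arrays per group.

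Named are all members, the 3 genes of smallest p in each pathway list and 1 in each marker list. Some genes that this rule selects are not reported here. Slc8b1, Vdr, Kl, Egf, Cnnm2, Slc41a3, Trpm7, Cldn14, Cldn19 and genes below the filter are named for their role, outside that rule. Also outside it are Cnnm3, Cnnm4, Slc41a1, Cldn7 and the distal nephron markers Slc12a3, Aqp2, Aqp3, Avpr2 and Scnn1b. Genes with 1 rat far from the other 3 are named for that gap. The members and lists were chosen with earlier results of these data known. Replicate numbers did not pair the rats. Alternatives were other scaling, background correction, filters, probe summaries, variance models, weights, blocks, and each rat left out.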

Additional observations from a re-analysis of the deposited data

Results flagged for a closer look

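In 216 groups of 4 rats, formed by the probes of the calcium and magnesium set and by the tested genes of all pathway and marker lists, 12 had 1 rat far from the other 3, where chance alone gives about 1 in 20. None was a probe of the set.

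Sham rat 1 was the one apart for Cldn2 (3.28, other sham rats 3.55 to 3.57), the potassium channel Kcnj1 (1.77, others 1.42 to 1.45), the water channel Aqp2 (4.70, others 4.24 to 4.30), the endothelial marker Emcn (1.09, others 1.36 to 1.37) and the leukocyte marker Ptprc (-2.32, others -2.05 to -2.01). Nephrectomized rat 3 was apart for Cldn3 (1.13, others 0.44 to 0.52), Cldn7 (0.48, others 1.73 to 1.82), Cldn23 (0.34, others 0.88 to 0.99), the proximal tubule marker Lrp2 (6.37, others 6.17 to 6.19) and the podocyte marker Podxl (4.86, others 5.13 to 5.17). Slc8b1 in sham rat 2 (-0.40, others 2.61 to 3.00) and the podocyte gene Nphs1 in sham rat 3 (-3.33, others 1.38 to 1.68) had the widest gaps.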

How the results depend on the processing

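S100g was called lower under all 19 settings that used both slides (-0.85 to -0.73, adjusted p 0.00142 to 0.0275 by limma) and not within 1 slide (-0.70 and -0.90). The number of member probes called was 1 in 18 of these settings, 1 in each leave-one-out fit, 2 with array weights, and 0 within slide 1 and 0 within slide 2. Over the whole array 777 probes were called. Without the filter on dim probes there were 333, with array weights 2620, within slide 1 there were 0 (2 rats per group) and within slide 2 151, and leaving out 1 rat gave 388 to 713. Without sham rat 2, 3 or 4 they were 433, 388 and 483, and without nephrectomized rat 2 or 4 512 and 391.

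Replicate numbers shared no more than a number (correlations of deviations -0.022 to 0.111), and with the replicate block 327 probes were called, S100g among them (adjusted p = 0.0275 by limma).

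Of the 57 other pathway genes, 1 was called with quantile normalization (Calm2), 1 with the mean of a gene's probes (Atp2b2), 2 with trend and robust estimation (Calm2 and Egfr) and 5 with array weights (Atp2b2, Calm2, Egfr, Mrs2 and Cldn2). Leaving out 1 rat gave 0 to 1, and the cause of these changes was not tested.

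Differences near 0 changed sign without being called: Trpv5 (-0.11 to 0.04 over single rats left out, 0.00 within slide 2), probe 3 of Slc8a1 (-0.09 to 0.14, and -0.14 within slide 1), Cldn16 (-0.03 to 0.11, and -0.07 within slide 2) and Casr (0.04 within slide 1). Trpv5 had the lowest intensity of the set, above the lowest well-measured intensity of each array.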
